A study of Mus musculus with 2 samples.

Results

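The 10 genes described here encode parts of the bone morphogenetic protein (BMP) pathway and were taken from the 27254 genes measured in both libraries. They were chosen by name: the ligands *Bmp2*, *Bmp4*, *Bmp5* and *Bmp6*, the secreted regulator *Bmper*, the receptors *Bmpr1a* and *Bmpr2*, and the target genes *Id1*, *Id2* and *Id3*. The question was in which lung cell types each gene was detected, and at what level, in each of the 2 libraries.

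BMP ligands are secreted dimers that bring together a type I receptor, such as the one encoded by *Bmpr1a*, and a type II receptor, such as the one encoded by *Bmpr2*. The type I receptor then phosphorylates SMAD proteins, which enter the nucleus and activate target genes, the *Id* genes among the best known. ID proteins bind E proteins, a group of transcription factors, and keep them from binding DNA. In the lung the pathway is known from airway branching and alveolar epithelial differentiation, and from the pulmonary vessels, where inherited pulmonary arterial hypertension is linked to *BMPR2*.

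Whole lungs, left and right lobes together, were taken from female wt C57BL/6J mice at PND1 (postnatal day 1) and dissociated with TrypLE and collagenase. Red blood cells were lysed and single cells were sequenced by Drop-seq, a droplet method that counts unique molecular identifiers (UMIs), in 2 batches of 1 mouse each. Both groups were untreated, so the comparisons lay between cell types within a mouse and between the mice.

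After cells with more than 10% mitochondrial UMIs were left out, 8003 of 9944 cells remained, 2388 in Batch 1 and 5615 in Batch 2. The limit removed 1 cell of Batch 1 and 1940 cells of Batch 2. The median was 1386.5 UMIs per cell in Batch 1 and 2014 in Batch 2, and no cell barcode was shared. Cell types were rebuilt by clustering without any BMP gene among the clustering genes and were named from fixed markers, so each name below carries "-like". Names were given to 7276 cells in 23 types, from 2075 alveolar matrix fibroblast-like cells to 22 platelet-like cells. In 22 types each marker of the list was higher than in the other cells, and in aerocyte-like cells 5 of 6 were. The 90 smooth muscle-like cells of Batch 1 held 35 cells listed as smooth muscle and 32 cells listed as a myofibroblast type. Few cells stood behind the Batch 1 secretory airway-like (7 cells), secretory and ciliated airway-like (9 cells) and platelet-like (7 cells) values. Of the 9 secretory and ciliated airway-like cells, the authors listed 8 as ciliated and none as club. They listed 1 as Sox2hi, their name for cells with ciliated and club cell markers. Of the 7 secretory airway-like cells, 3 were listed as club and 3 as AT2, so both airway names are loose in Batch 1. In bulk sums of this kind, more cells with a transcript and more transcripts per cell cannot be told apart, so the share of cells is given beside the level.

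Levels are UMIs of a gene per 10000 UMIs of the cell type, with exact 95% Poisson intervals, and shares of cells carry the thinned share, which is the share expected had every cell given 600 UMIs. Intervals and shares cover counting error only. Shares of cells were not tested against each other, and an overlap of 2 intervals is not a test. Differences between cell types were tested with edgeR's quasi-likelihood test on UMI counts summed by type and batch, with batch as a block, on 46 sums and 6819 genes. All adjusted p-values are from that test with Benjamini-Hochberg adjustment over all genes of the fit. Because each batch was 1 mouse and batch was a block, they measure how unevenly the types differed between these 2 mice. Nothing says how far other mice would vary.

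In the mouse genome (GRCm38, GENCODE annotation) the ligand genes lay at chr2:133552159-133562885 (*Bmp2*, + strand), chr14:46383520-46390669 (*Bmp4*, - strand), chr9:75775364-75900310 (*Bmp5*, + strand) and chr13:38345107-38500302 (*Bmp6*, + strand). *Bmper* lay at chr9:23223076-23485200 (+ strand), *Bmpr1a* at chr14:34410734-34503341 (- strand) and *Bmpr2* at chr1:59763400-59879014 (+ strand). *Id1* lay at chr2:152736251-152737410 (+ strand), *Id2* at chr12:25093799-25097140 (- strand) and *Id3* at chr4:136143497-136145755 (+ strand). Exons of *Bmp4*, *Bmp5*, *Bmp6* and *Bmpr1a* overlap exons of a gene on the other strand over 89, 1878, 224 and 290 bases, so reads there are uncertain unless the counting used strand.

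Promoter sequence from RefSeq (GRCm38.p6, 250 bases before to 50 after the start) was at hand for 8 of the 10 members, all but *Bmp2* and *Id1*. It was searched on both strands for GGCGCC, a letter run known from BMP-responsive elements, and for the SMAD box CAGAC or its reverse complement GTCTG. Neither run overlaps the other. Of 32851 promoters 11.9% held GGCGCC, 49.6% held the SMAD box and 5.24% held both. The stretches of 30 bases around each match are shown for the target genes and the receptors, whose class differences are given below, with the match in capitals.
*Id2* at chr12:25096306-25096335, - strand, 226 to 231 bases before the start, in an intron of a longer transcript: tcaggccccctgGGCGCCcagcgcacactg
*Id3* at chr4:136143643-136143672, + strand, 163 to 167 bases before the start, in a UTR exon of a longer transcript: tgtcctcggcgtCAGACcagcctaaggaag
*Id3* at chr4:136143742-136143771, + strand, 64 to 68 bases before the start, in the same annotation: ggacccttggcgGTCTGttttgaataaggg
*Bmpr1a* at chr14:34502727-34502756, - strand, 193 to 198 bases before the start, in an intron: tgcgcgcgcgccGGCGCCtcttgctcgccc
*Bmpr2* at chr1:59764162-59764191, + strand, 100 to 105 bases before the start, in a UTR exon: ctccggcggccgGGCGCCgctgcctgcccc
*Id2*, *Bmpr1a* and *Bmpr2* thus shared the GGCGCC run, and *Id3* held the SMAD box at 2 places, as 16.2% of all promoters did at 2 or more. GGCGCC holds only G and C, which made up 63.3% (*Id2*), 79.3% (*Bmpr1a*) and 59.3% (*Bmpr2*) of these windows. The median over all promoters was 52.7%, and the share among promoters of like content was not computed. The windows of *Bmp5* and *Bmp6* also held the SMAD box, at 1 place each. The windows of *Bmp4* and *Bmper* held neither run. A match is a description of these letters in this window, and no binding was measured.

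*Bmp2*, a ligand of the same subgroup as *Bmp4*, was highest in myofibroblast-like cells in both mice. In myofibroblast-like cells the level was 2.79 UMIs per 10000 (interval 1.84 to 4.07) in Batch 1 and 3.14 (2.54 to 3.84) in Batch 2. With 3.18% and 3.72% of the cells, this type gave 31.4% and 23.5% of all *Bmp2* UMIs. At least 1 *Bmp2* UMI was found in 19 of 76 and 57 of 209 myofibroblast-like cells, a share of 13.6% and 14.1% after thinning, at median depths of 1049 and 1323 UMIs. In B lymphocyte-like cells, taken as a type that should lack the gene, it was found in 1 of 25 and 0 of 41 cells, the second of which allows a share of up to 8.57%, at median depths of 1217 and 1415 UMIs. The interval of the Batch 1 share in B lymphocyte-like cells reaches 19.5% and that of the myofibroblast-like share starts at 16.6%, so the intervals were apart in Batch 2 only.

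Smooth muscle-like cells were second for *Bmp2* in Batch 2 and by the mean of both batches, while in Batch 1 the venous-like cells described below were above them. The smooth muscle-like level was 0.862 UMIs per 10000 (0.413 to 1.58) in Batch 1 and 2.61 (2.08 to 3.22) in Batch 2, a ratio of 3.02 with intervals apart. Pericyte-like cells held 0.670 and 0.718 UMIs per 10000. The matrix fibroblasts were the opposite end of the mesenchyme. In alveolar matrix fibroblast-like cells 2 UMIs were counted over 877 cells of Batch 1 and 7 over 1198 cells of Batch 2, which gave 0.0155 and 0.0315 UMIs per 10000. Collagen-rich matrix fibroblast-like cells held 0 and 1 UMI.

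The contrast within the mesenchyme passed the test in both directions. Against the mean of the other mesenchymal types, *Bmp2* was higher in myofibroblast-like cells by 4.00 on the log2 scale (SE 0.42, edgeR adjusted p = 3.18e-11) and in smooth muscle-like cells by 3.13 (SE 0.44, adjusted p = 1.22e-07). It was lower in alveolar matrix fibroblast-like cells, with a log2 difference of -3.59 (SE 0.84, adjusted p = 0.00119), and in collagen-rich matrix fibroblast-like cells, with -3.89 (SE 1.08, adjusted p = 0.0176). Both higher calls held in all 10 alternatives that could test them. Both lower calls were lost with a mitochondrial limit of 5%, and the collagen-rich one also with DESeq2. Of all genes, 4.02% were called higher in myofibroblast-like and 4.80% in smooth muscle-like cells, and 3.26% were called lower in alveolar and 0.293% in collagen-rich matrix fibroblast-like cells. Over all genes and types 6.70% of such comparisons were called, 4.87% higher and 1.83% lower. Of the 198 comparisons of a member with a type, 29 were called, 19 higher and 10 lower, and 7 of the 29 were of *Bmp2*.

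Outside the mesenchyme *Bmp2* was sparse. In AT2-like cells, the surfactant-producing alveolar type, it was at 0.150 (0.0552 to 0.328) and 0.217 (0.167 to 0.277) UMIs per 10000, in 3.49% and 6.98% of cells. The edgeR fit called it higher there and in AT1/AT2-like cells than in the other epithelial types (adjusted p = 8.59e-04 and 0.0307), and lower in secretory and ciliated airway-like cells, where no *Bmp2* UMI was counted in either batch (adjusted p = 0.00369). The shares of all genes called in those directions were 6.13%, 3.09% and 7.48%. The AT1/AT2-like call was lost in 6 of 10 alternatives and the AT2-like call in 3 of 10. With cell types clustered in each batch alone, the AT1/AT2-like difference reversed to -0.45. In venous-like endothelial cells Batch 1 stood at 0.956 UMIs per 10000 and Batch 2 at 0.170, but 6 of the 8 UMIs of Batch 1 lay in 1 cell. In general capillary-like cells both mice were low, at 0.116 and 0.120.

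*Bmp4*, the ligand best known from the distal tips of the branching airway, was shared by alveolar epithelium and mesenchyme. AT1-like cells, the flat gas-exchange type, held 1.69 UMIs per 10000 (1.15 to 2.40) in Batch 1 and 0.704 (0.563 to 0.869) in Batch 2. A *Bmp4* UMI was found in 28.2% of 78 and 16.1% of 336 AT1-like cells, or 10.6% and 4.19% after thinning, at median depths of 1798.5 and 2113 UMIs, against 4.00% and 2.44% of B lymphocyte-like cells. The thinned share in B lymphocyte-like cells was 1.36% and 0.461%. The intervals of the unthinned shares met in both batches, since those of B lymphocyte-like cells reach 19.5% and 12.6% and those of AT1-like cells start at 19.4% and 12.5%.

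In AT2-like cells *Bmp4* was at 0.652 and 0.458 UMIs per 10000, and in AT1/AT2-like cells at 0.546 and 0.472. AT1-like cells were above the other epithelial types by 1.34 on the log2 scale (SE 0.37, edgeR adjusted p = 0.00783), a call that was lost without the batch block, with types of at least 20 cells and without the 3 types with the fewest cells. The separate values per batch were 3.16 in Batch 1 and 0.97 in Batch 2, and 8.15% of all genes were called higher in AT1-like cells. In the mesenchyme the level was 1.24 and 0.761 in myofibroblast-like cells and 0.924 and 0.633 in alveolar matrix fibroblast-like cells. Collagen-rich matrix fibroblast-like cells held 1.07 and 0.52. The alveolar matrix fibroblast-like cells were called higher than the other mesenchymal types (log2 difference 1.16, SE 0.38, adjusted p = 0.0318), but 5 of 10 alternatives lost that call and 9.87% of all genes were called higher there.

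Batch 1 was higher than Batch 2 for *Bmp4* in 3 types with intervals apart: AT1-like, alveolar matrix fibroblast-like and smooth muscle-like cells. The last of these had 9 UMIs in 90 cells of Batch 1 and 3 UMIs in 194 cells of Batch 2. General capillary-like cells held little, with 0.0579 and 0.0509 UMIs per 10000. Arterial-like cells held 0.129 and 0.148, and venous-like cells 0.598 in Batch 1, from 5 UMIs, and 0.114 in Batch 2.

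*Bmp5*, of the BMP5/6/7 subgroup, had its highest values in pericyte-like and smooth muscle-like cells in both batches, with intervals that other types overlapped. Pericyte-like cells held 0.804 UMIs per 10000 (0.295 to 1.75) in Batch 1 and 0.751 (0.476 to 1.13) in Batch 2, and smooth muscle-like cells 0.776 (0.355 to 1.47) and 0.576 (0.347 to 0.899). The 2 types could not be told apart by level. Myofibroblast-like cells held 0.414 (0.113 to 1.06) and 0.529 (0.303 to 0.860), intervals that overlapped those of both types in each batch. In alveolar matrix fibroblast-like cells *Bmp5* was at 0.544 and 0.355, and in AT2-like cells at 0.276 and 0.102. A *Bmp5* UMI was found in 7.94% and 12.9% of pericyte-like cells (thinned 3.78% and 4.01%, median depths 1096 and 1729 UMIs) and in no B lymphocyte-like cell of either batch. Those counts of 0 allow up to 13.3% and 8.57%, and the intervals of the pericyte-like shares start at 3.44% and 8.51%. The intervals thus overlapped in both batches. No single type was called against the rest of its class. In the secretory airway-like cells 0 UMIs in 7 cells of Batch 1 stood beside 20 UMIs in 59 cells of Batch 2, and the Batch 1 count of 0 allows up to 1.81 UMIs per 10000.

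*Bmp6*, the iron-linked ligand of the same subgroup, was close to the limit of these libraries. It had 4 UMIs in the whole of Batch 1 and 17 in the whole of Batch 2 and was too low to be tested. The highest value, 0.145 UMIs per 10000 in aerocyte-like cells of Batch 1, was 1 UMI. It was not detectable at this depth in either the epithelial or the immune class, where a count of 0 allows up to 0.0381 and 0.00380 UMIs per 10000 in the epithelial class.

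**Figure D1:**
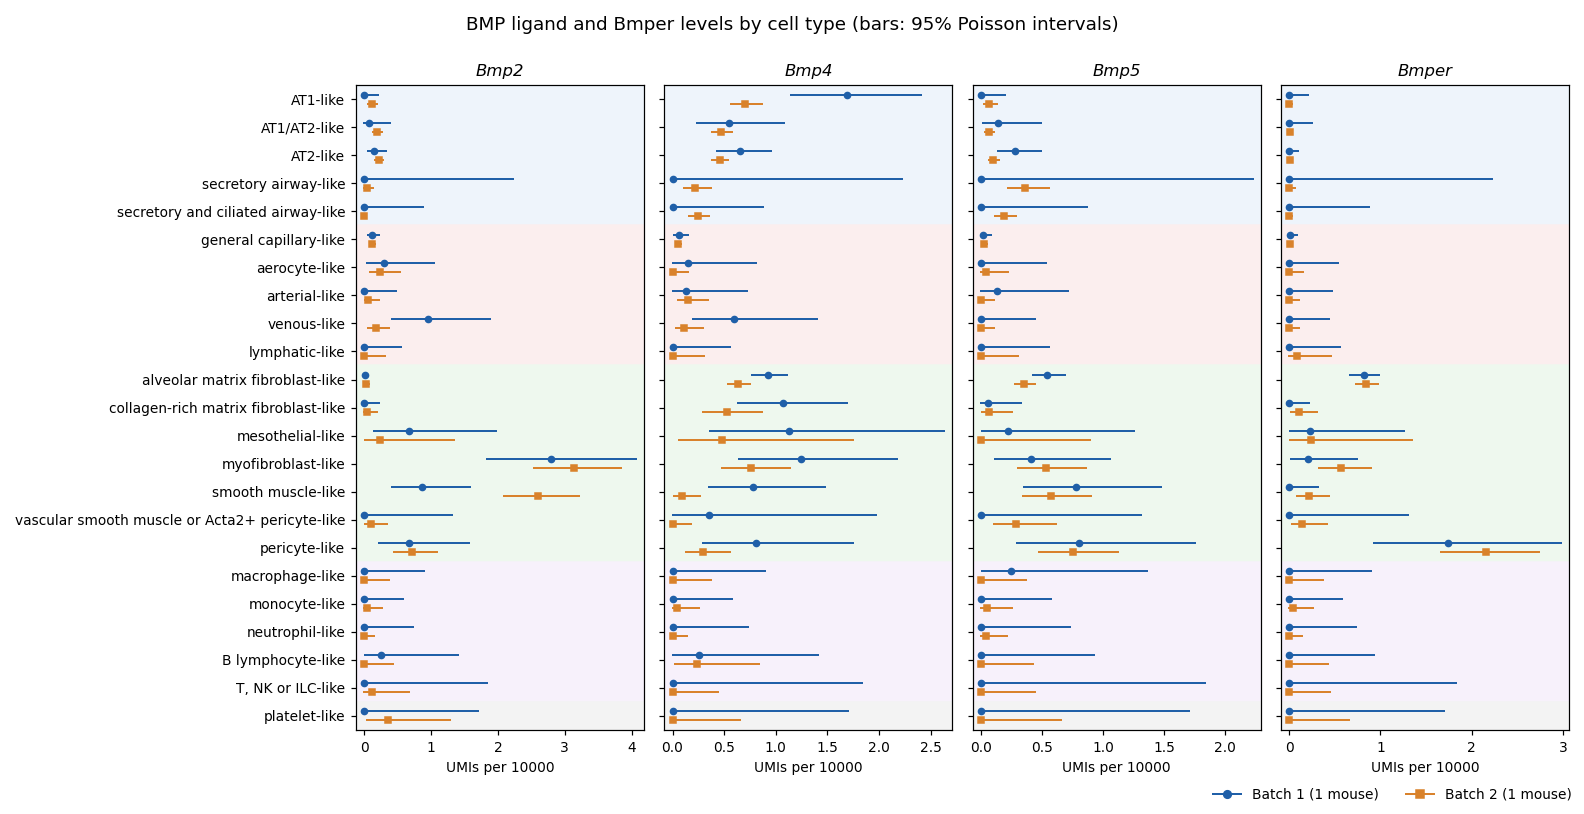
UMIs per 10000 of *Bmp2*, *Bmp4*, *Bmp5* and *Bmper* (horizontal axes, a scale of its own in each panel) in the 23 cell types (vertical axis, shaded by class), with circles for Batch 1, squares for Batch 2 and bars for 95% Poisson intervals. *Bmp2* stands out in myofibroblast-like cells of both mice and *Bmper* in pericyte-like cells, while *Bmp4* spans epithelial and mesenchymal types. Long bars belong to types with few cells.

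*Bmper*, a secreted protein that binds BMPs and can block or promote their action, was counted almost wholly in the mesenchyme. The mesenchymal class held 96.0% of its UMIs in Batch 1 and 93.4% in Batch 2, where it held 51.3% and 35.1% of cells. Mesenchymal levels of 0.666 and 0.770 UMIs per 10000 stood beside 0 and 0.0064 in the epithelial class, 0.0096 and 0.0088 in the endothelial class, and 0 and 0.0092 in the immune class.

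Within the mesenchyme, pericyte-like cells led with 1.74 UMIs per 10000 (0.927 to 2.98) in Batch 1 and 2.15 (1.67 to 2.74) in Batch 2. Alveolar matrix fibroblast-like cells followed with 0.816 (0.667 to 0.987) and 0.845 (0.728 to 0.974), and the values of both mice overlapped in each type. *Bmper* was higher than in the other mesenchymal types in pericyte-like cells by 3.12 (SE 0.48, edgeR adjusted p = 7.79e-07) and in alveolar matrix fibroblast-like cells by 2.11 (SE 0.45, adjusted p = 3.60e-04), both on the log2 scale. In pericyte-like cells 6.54% of all genes were called higher. Each call was lost with DESeq2 and in no other alternative. A *Bmper* UMI was found in 14.3% and 25.8% of pericyte-like cells (thinned 8.39% and 10.3%) and in no B lymphocyte-like cell. The interval of the Batch 1 share, from 7.70%, overlapped that of 0 of 25 cells, which reaches 13.3%. The 7 alveolar matrix fibroblast-like clusters ranged from 0.428 to 1.20 UMIs per 10000.

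Pericyte-like cells thus led for *Bmper* and myofibroblast-like cells for *Bmp2*. For *Bmp5* the highest values, in pericyte-like and smooth muscle-like cells, were not told apart from each other or from myofibroblast-like cells. Across the 16 types with at least 20 cells in both batches, *Bmp5* and *Bmper* correlated at 0.65 in Batch 1 and 0.90 in Batch 2 (Pearson, log2 of CPM plus 10). Across the same types *Bmp2* and *Bmper* correlated at 0.29 and 0.52. The points share their libraries and depths, and the values are descriptions.

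*Bmpr1a*, the type I receptor, was found in epithelium and mesenchyme and hardly in endothelium. Vascular smooth muscle or Acta2+ pericyte-like cells held 1.77 UMIs per 10000 (0.575 to 4.13) in Batch 1 and 0.947 (0.579 to 1.46) in Batch 2. Smooth muscle-like cells held 1.81 (1.12 to 2.77) and 0.818 (0.539 to 1.19), and AT1-like cells 1.31 (0.839 to 1.95) and 0.884 (0.725 to 1.07). In general capillary-like cells 2 UMIs in 392 cells and 14 UMIs in 1098 cells gave 0.0289 and 0.0419. With the types ordered by the mean of both batches, the ranges over the 2 batches overlapped for all 22 pairs of neighbours, so the order of *Bmpr1a* levels is loose. For the other members between 17 (*Id1*) and 21 of the 22 pairs overlapped.

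The thinned share of cells with a *Bmpr1a* UMI was 12.4% and 6.70% in vascular smooth muscle or Acta2+ pericyte-like cells, from 31.2% of 16 and 17.8% of 90 cells at median depths of 1312.5 and 1853 UMIs. In neutrophil-like cells, at median depths of 1479 and 1949.5 UMIs, 0 of 27 and 1.02% of 98 cells had one. AT1-like cells were higher than the other epithelial types by 1.04 (log2, SE 0.35, edgeR adjusted p = 0.0416), which 5 of 9 alternatives lost.

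*Bmpr2*, the type II receptor, had the opposite class pattern. The endothelial class held 51.0% of its UMIs in Batch 1 and 68.3% in Batch 2, with 23.3% and 26.7% of the cells. Aerocyte-like cells, the capillary cells that line the gas-exchange surface, were at 0.870 UMIs per 10000 (0.319 to 1.89) in Batch 1 and 0.971 (0.622 to 1.44) in Batch 2. General capillary-like cells were at 0.579 (0.414 to 0.788) and 0.931 (0.830 to 1.04), with intervals apart. Arterial-like cells were at 0.257 (0.0311 to 0.929), from 2 UMIs, and 1.04 (0.724 to 1.45).

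The lymphatic-like cells were low among endothelial types, more clearly in Batch 2 than in Batch 1. They held 1 *Bmpr2* UMI in 18 cells of Batch 1 and 0 in 27 cells of Batch 2, the second of which allows up to 0.249 UMIs per 10000. *Bmpr2* was lower there than in the other endothelial types, with a log2 difference of -3.71 (SE 1.05, edgeR adjusted p = 0.00996) that held in all 7 alternatives that could test it. In these cells 5.65% of all genes were called lower. The difference was -1.27 in Batch 1 alone and -4.16 in Batch 2 alone. In Batch 1 the arterial-like (0.257) and venous-like (0.239) levels were low as well, from few UMIs. The 9 general capillary-like clusters ranged from 0.383 to 1.01 UMIs per 10000.

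A *Bmpr2* UMI was found in 10.2% and 14.4% of aerocyte-like cells (thinned 5.59% and 5.76%, median depths 1106 and 1461 UMIs), against 3.70% of 27 and 2.04% of 98 neutrophil-like cells (thinned 1.34% and 0.570%). The interval of the Batch 1 neutrophil-like share reaches 18.3%, so in Batch 1 it overlapped that of the aerocyte-like share. Both receptor transcripts in 1 cell were rare, at 0.180% and 0.466% of endothelial cells, 0.408% and 0.405% of mesenchymal cells and 0 and 1.73% of epithelial cells. At this depth few cells could show both.

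**Figure D2:**
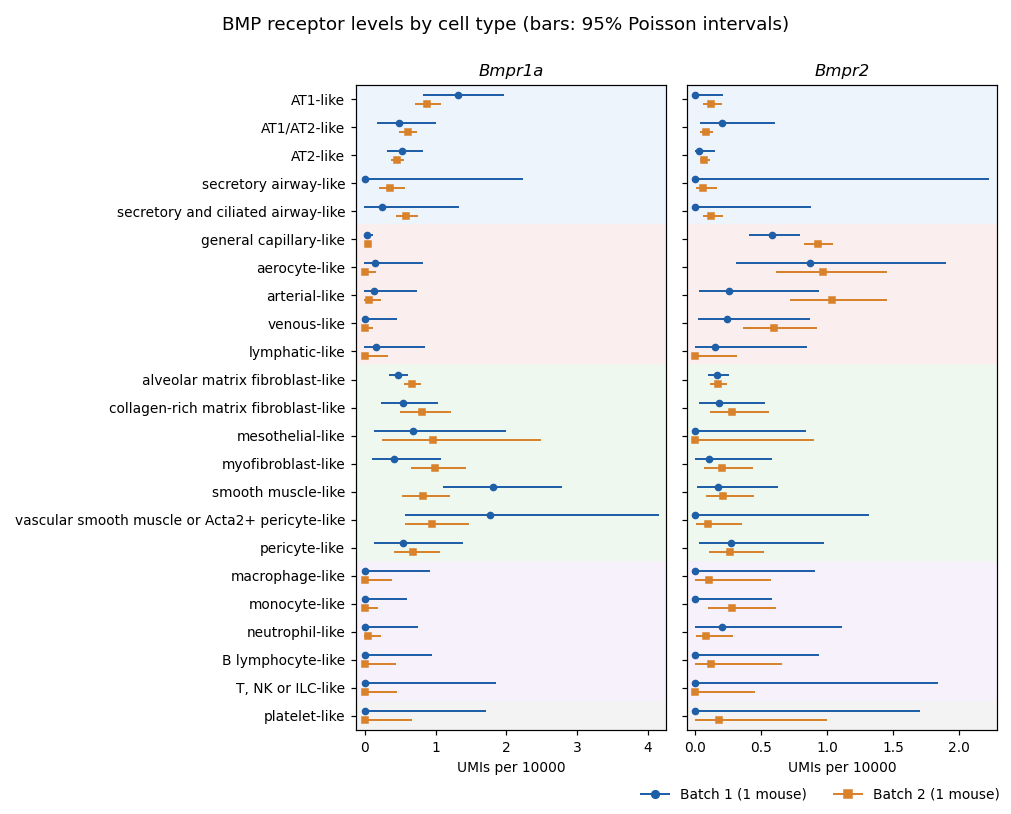
UMIs per 10000 of *Bmpr1a* and *Bmpr2* (horizontal axes) in the 23 cell types (vertical axis, shaded by class), with circles for Batch 1, squares for Batch 2 and bars for 95% Poisson intervals. *Bmpr1a* is near 0 in the vascular endothelial types. *Bmpr2* is highest in them in Batch 2, and in aerocyte-like and general capillary-like cells in Batch 1. Lymphatic-like cells are low for both.

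*Id1*, the target most widely used as a readout of BMP signalling, was highest in the endothelial class but not confined to it. That class held 462 of 840 *Id1* UMIs in Batch 1 and 2158 of 3760 in Batch 2. The epithelial class held 84 and 1138. Arterial-like cells held 6.69 UMIs per 10000 (4.99 to 8.77) in Batch 1 and 7.36 (6.48 to 8.34) in Batch 2. Aerocyte-like cells held 4.49 (3.05 to 6.38) and 7.69 (6.63 to 8.86), venous-like cells 5.98 (4.44 to 7.88) and 4.32 (3.66 to 5.06), and general capillary-like cells 4.34 (3.86 to 4.86) and 4.42 (4.20 to 4.65). Of the arterial-like cells 70.0% and 76.5% had an *Id1* UMI (thinned 30.9% and 36.8%, median depths 2084 and 2149.5 UMIs), against 0 of 25 and 2.44% of 41 B lymphocyte-like cells.

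For *Id1*, lymphatic-like cells stood apart from the other endothelium. They held 2 *Id1* UMIs in 18 cells and 4 in 27 cells, or 0.302 and 0.333 UMIs per 10000, although their median depths of 2851.5 and 3958 UMIs were above those of the arterial-like cells. Against the other endothelial types the log2 difference was -4.19 (SE 0.54, edgeR adjusted p = 4.96e-09), and it was called in all 8 alternatives that could test it. Arterial-like and aerocyte-like cells were called higher than the other endothelial types, by 1.36 (SE 0.31, adjusted p = 0.00199) and 1.22 (SE 0.32, adjusted p = 0.00830), beside 2.84% and 3.94% of all genes. Both of these calls rested on the lymphatic-like cells in the mean they were set against. Without the lymphatic-like, monocyte-like and macrophage-like sums, a choice made after the data were seen, the arterial-like difference was 0.34 and the aerocyte-like one 0.17, and neither was called.

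Outside the endothelium, *Id1* was at 3.07 and 2.65 UMIs per 10000 in secretory and ciliated airway-like cells and at 1.26 and 2.24 in AT1-like cells. The airway difference among epithelial types was 0.90 (log2, SE 0.32, adjusted p = 0.0368, beside 10.4% of all genes called higher) and was lost in 3 of 6 alternatives. Neutrophil-like cells held 0.792 and 0.953, and among the immune types they were higher by 3.01 (log2, SE 0.61, adjusted p = 2.34e-04), a call that held in all 9 alternatives that could test it. There 5.60% of all genes were called higher, and those levels came from 4 UMIs in 27 cells and 25 UMIs in 98 cells.

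*Id3* had a like pattern with a wider reach. Arterial-like cells led with 13.2 UMIs per 10000 (10.8 to 16.1) in Batch 1 and 13.1 (11.9 to 14.3) in Batch 2, followed by venous-like cells with 10.0 and 9.35. General capillary-like cells held 10.8 (10.1 to 11.6) and 7.98 (7.68 to 8.29), and aerocyte-like cells 9.71 and 8.78. An *Id3* UMI was found in 96.7% and 90.8% of arterial-like cells (thinned 56.9% and 55.3%), against 11.1% of 27 and 4.08% of 98 neutrophil-like cells (thinned 3.11% and 1.63%).

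In the mesenchyme *Id3* was at 7.09 and 9.23 UMIs per 10000 in vascular smooth muscle or Acta2+ pericyte-like cells, which did not pass the test against the other mesenchymal types (0.94 on the log2 scale, SE 0.30, edgeR adjusted p = 0.0650). Smooth muscle-like cells held 2.50 and 5.51, and myofibroblast-like cells 2.48 and 4.70. In lymphatic-like cells *Id3* was at 0.906 and 1.08, lower than in the other endothelial types by a log2 difference of -3.45 (SE 0.44, edgeR adjusted p = 6.18e-09), called in all 8 alternatives that could test it. Among epithelial types AT1-like cells were highest, at 5.95 (4.89 to 7.18) and 5.24 (4.85 to 5.67) beside 0.878 and 1.62 in AT2-like cells. The AT1-like difference was 1.58 (SE 0.28, adjusted p = 2.12e-05) and held in all 9 alternatives. The arterial-like (1.20, SE 0.29, adjusted p = 0.00453) and general capillary-like (0.95, SE 0.28, adjusted p = 0.0365) calls were lost without the lymphatic-like, monocyte-like and macrophage-like sums, where they were 0.36 and 0.11. In general capillary-like cells 3.55% of all genes were called higher.

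*Id2* was highest in smooth muscle-like cells in both batches. By class, the epithelium (5.04 UMIs per 10000) was above the immune cells (3.46) in Batch 1, and the immune cells (7.27) were above the epithelium (3.02) in Batch 2. Smooth muscle-like cells held 10.3 UMIs per 10000 (8.57 to 12.4) in Batch 1 and 18.0 (16.6 to 19.5) in Batch 2. An *Id2* UMI was found in 41.1% of 90 and 72.7% of 194 of these cells (thinned 30.3% and 52.3%, median depths 1168 and 1561 UMIs), against 0 of 25 and 17.1% of 41 B lymphocyte-like cells. Against the other mesenchymal types the difference was 2.57 on the log2 scale (SE 0.30, edgeR adjusted p = 5.28e-10) and was called in all 10 alternatives.

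Among immune types *Id2* was at 7.95 and 7.83 UMIs per 10000 in T, NK or ILC-like cells, lymphocytes in which ID2 is known to be needed for innate lineages. Neutrophil-like cells held 5.55 and 5.60. Monocyte-like cells held 3.75 (2.40 to 5.57) in Batch 1 and 12.5 (11.0 to 14.1) in Batch 2, and macrophage-like cells 1.95 (0.842 to 3.84) and 9.21 (7.41 to 11.3). B lymphocyte-like cells, whose development depends on E proteins, held 0 UMIs in 25 cells and 18 UMIs in 41 cells, 8 of which lay in 1 cell. They were lower than the other immune types by a log2 difference of -2.57 (SE 0.54, adjusted p = 7.09e-04), called in all 10 alternatives, beside 1.70% of all genes called lower.

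In the epithelium *Id2* was at 7.15 (6.34 to 8.03) UMIs per 10000 in AT2-like cells of Batch 1 and at 3.35 (3.14 to 3.57) in those of Batch 2. AT1-like cells were at 2.35 in Batch 1 and 3.33 in Batch 2, so AT2-like cells stood above them in Batch 1 only. The AT2-like call (1.60, SE 0.34, edgeR adjusted p = 4.27e-04) held in 6 of 10 alternatives, with 2.75 in Batch 1 alone and 0.68 in Batch 2 alone. Alveolar matrix fibroblast-like cells were at the low end of the mesenchyme, with 0.637 and 1.26 UMIs per 10000 and a log2 difference of -1.66 (SE 0.39, adjusted p = 0.00127) that was lost without the batch block (adjusted p = 0.0607). Pericyte-like cells were also lower (-1.62, SE 0.46, adjusted p = 0.0122, beside 2.71% of all genes), and so were secretory airway-like cells among epithelial types (-1.56, SE 0.49, adjusted p = 0.0414, beside 1.82%), calls that 2 of 9 and 3 of 7 alternatives lost. Venous-like cells were higher among endothelial types (1.43, SE 0.39, adjusted p = 0.0205, beside 2.87% of all genes), which 4 of 10 alternatives lost.

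**Figure D3:**
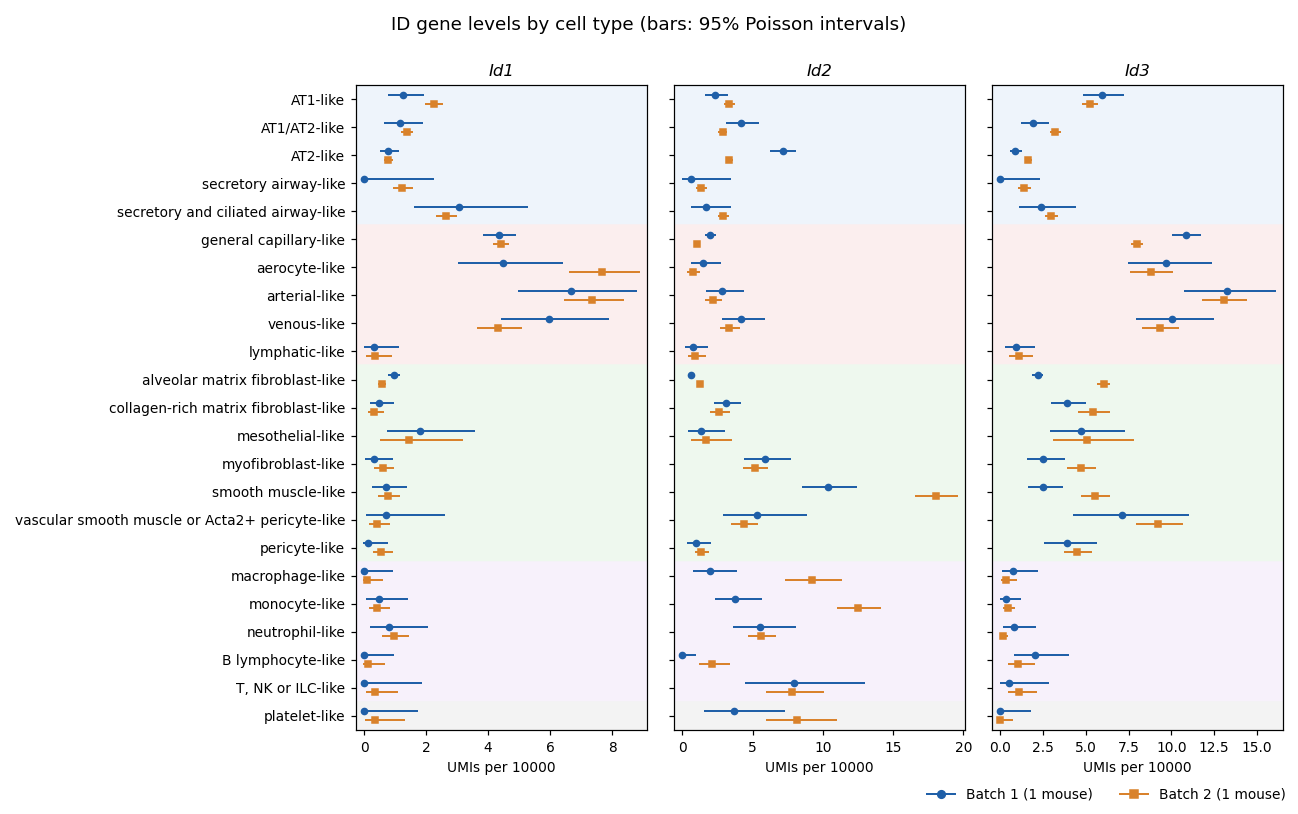
UMIs per 10000 of *Id1*, *Id2* and *Id3* (horizontal axes, a scale of its own in each panel) in the 23 cell types (vertical axis, shaded by class), with circles for Batch 1, squares for Batch 2 and bars for 95% Poisson intervals. *Id1* and *Id3* are highest in the vascular endothelial types and low in lymphatic-like cells, and *Id2* is highest in smooth muscle-like cells.

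At least 1 transcript of *Id1*, *Id2* or *Id3* was found in 82.0% and 83.7% of endothelial cells, 68.4% and 75.3% of epithelial cells, 38.0% and 57.2% of mesenchymal cells and 37.9% and 64.6% of immune cells. Within the endothelium the share ran from 33.3% and 51.9% in lymphatic-like to 96.7% and 95.9% in arterial-like cells. A transcript of any of the 4 ligands was found in 22.6% and 24.5% of epithelial, 19.3% and 19.7% of mesenchymal, 4.31% and 5.40% of endothelial and 1.96% and 1.64% of immune cells. These shares rise with depth and were not thinned.

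Some called differences between types were unequal in the 2 mice. The values of a batch alone are differences of log2 CPM, not estimates of the edgeR fit. In Batch 1 alone and Batch 2 alone, the AT1-like differences were 3.16 and 1.22 for *Id3* and 2.41 and 0.76 for *Bmpr1a*. In Batch 1 the types they were set against included 2 airway types of 7 and 9 cells, weighted like the rest. The *Id3* level of AT1-like cells itself was alike in both mice, as given above. The secretory and ciliated airway-like *Id1* difference was 1.90 and 0.65, and the aerocyte-like one 0.55 and 1.45. For *Bmpr2* in lymphatic-like cells the values were -1.27 and -4.16, and for *Id2* in B lymphocyte-like cells -5.91 and -2.39. *Bmp2* in smooth muscle-like cells was at 1.72 and 3.16, and *Bmp4* in alveolar matrix fibroblast-like cells at 0.69 and 1.56. The direction was the same in both mice for each of these.

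Across the 16 types the receptor *Bmpr2* correlated with *Id1* at 0.65 in Batch 1 and 0.73 in Batch 2, and with *Id3* at 0.66 and 0.64. *Id1* and *Id3* correlated at 0.67 and 0.64, *Id2* and *Id3* at -0.11 and -0.53, and *Bmp4* and *Bmpr1a* at 0.81 and 0.81. These are descriptions over types that share a library. Within general capillary-like cells, an *Id3* UMI was found in 77.4% and 80.2% of cells with an *Id1* UMI and in 63.9% and 60.7% of cells without one, and deeper cells hold more of both.

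Set against the other 3 classes, each class had its own set of called members. Of the 10 members 9 entered the fit, all but *Bmp6*. Of these, 2 in the epithelial, 5 in the endothelial, 1 in the mesenchymal and 6 in the immune comparison had types at 0 UMIs on both sides. Such a comparison is undetermined, and none of them was called. For *Id1*, *Id2* and *Id3* every type held UMIs, and the size of the difference could be fitted. For the ligands, the receptors and *Bmper* some types held 0 UMIs in both batches, so that the fitted size depends on the prior count. For these genes the direction of the call is given, with the size from a second fit to UMIs summed by class and batch (12126 genes). That second fit also held the cells of a class in unnamed clusters.

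In the mesenchymal class 6 members were called higher and 1 lower, beside 18.0% of all genes higher and 11.0% lower. The higher ones were *Bmp2*, *Bmp4*, *Bmp5*, *Bmper*, *Bmpr1a* and *Id3*. Summed by class, 18.3% of genes were higher and 14.2% lower, and *Bmper* had the largest member difference, 6.49 on the log2 scale (SE 0.33, edgeR adjusted p = 2.32e-08). There *Bmp5* was higher by 3.08 (SE 0.27), *Bmpr1a* by 3.08 (SE 0.28), *Bmp2* by 2.44 (SE 0.34) and *Bmp4* by 2.28 (SE 0.22). *Id3* was higher by 1.05 over types (SE 0.15, adjusted p = 1.55e-08), and *Id1* was lower by a log2 difference of -0.84 (SE 0.28, adjusted p = 0.0151), with -0.27 in Batch 1 alone and -1.13 in Batch 2 alone. The *Id1* call was lost without the gene filter. With a mitochondrial limit of 5% the calls of *Bmp2*, *Bmper* and *Id1* were lost.

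In the endothelial class 3 members were called higher and 1 lower, beside 19.7% of all genes higher and 7.57% lower. *Id1* was higher by 2.25 (SE 0.29, adjusted p = 6.61e-10) and *Id3* by 1.67 (SE 0.17, adjusted p = 6.22e-13), and both held in all 11 alternatives. *Id2* was lower by a log2 difference of -1.24 (SE 0.21, adjusted p = 1.66e-06), with -0.20 in Batch 1 alone and -1.54 in Batch 2 alone. *Bmpr2* was called higher (adjusted p = 0.00691), and its difference summed by class was 2.67 (SE 0.23, adjusted p = 2.83e-06), but with cell types clustered in each batch alone it was 1.02 with an adjusted p of 0.344. Summed by class, 17.1% of genes were higher and 14.0% lower. There *Bmp4*, *Bmp5* and *Bmpr1a* were lower, by log2 differences of -1.73 (SE 0.34), -2.44 (SE 0.46) and -2.31 (SE 0.58).

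In the epithelial class 4 members were called higher and none lower, beside 30.0% of all genes higher and 8.17% lower. The higher ones were *Bmp4*, *Bmp5*, *Bmpr1a* and *Id1*, and summed by class *Bmp4* was higher by 2.32 (SE 0.23, edgeR adjusted p = 5.36e-06), *Bmpr1a* by 3.22 (SE 0.28) and *Bmp5* by 1.12 (SE 0.32, adjusted p = 0.0163). Summed by class, 3 members were higher and 2 lower, beside 22.4% and 15.8% of all genes. The lower ones were *Bmpr2*, with a log2 difference of -1.48 (SE 0.31, edgeR adjusted p = 0.00238), and *Bmper*, with -2.49 (SE 0.86, adjusted p = 0.0372). The *Id1* difference was 1.14 over types (SE 0.20, adjusted p = 9.88e-07), 0.37 in Batch 1 alone and 1.16 in Batch 2 alone, and 0.26 summed by class (adjusted p = 0.418), where each type weighs by its UMIs. The *Bmp5* call was lost in 3 of 10 alternatives, and its value in Batch 1 alone was -0.08. *Id2* (0.25, adjusted p = 0.323) and *Id3* (0.09, adjusted p = 0.841) did not pass the test.

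In the immune class 1 member was called higher and 2 lower, beside 12.4% of all genes higher and 20.1% lower. The other 6 members were undetermined in this comparison. *Id3* was lower by a log2 difference of -2.81 (SE 0.24, adjusted p = 1.76e-16) and *Id1* by one of -2.55 (SE 0.34, adjusted p = 4.66e-09). *Id2* was higher by 1.06 (SE 0.20, adjusted p = 1.68e-05), yet its value was -0.54 in Batch 1 alone and 1.44 in Batch 2 alone, so that call followed Batch 2. Summed by class, 7 members were lower and 1 higher, beside 17.1% and 16.8% of all genes.

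**Figure D4:**
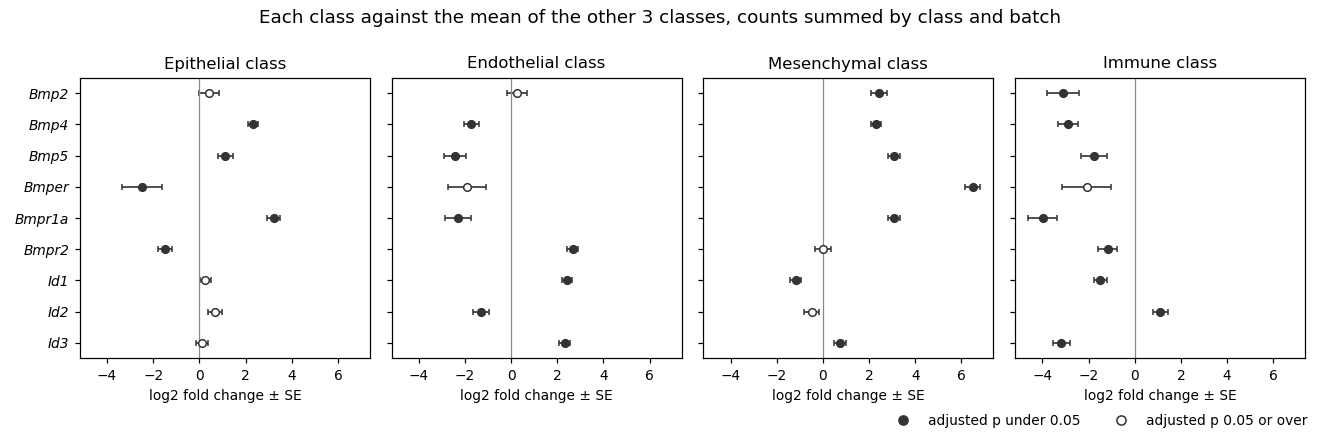
Log2 difference of each tested member between a cell class and the mean of the other 3 classes (horizontal axes) from UMIs summed by class and batch, with bars for the standard error, filled circles for an adjusted p under 0.05 and 1 panel per class. *Bmper* is the farthest to the right in the mesenchymal panel and *Bmpr2*, *Id1* and *Id3* lie to the right in the endothelial panel.

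The 2 mice gave separate Poisson intervals in 23 of 230 member and type pairs, 9 with Batch 1 higher and 14 with Batch 2 higher. The *Id* genes made up most of them, with 8 pairs of *Id2*, 6 of *Id3* and 3 of *Id1*, and *Bmp5*, *Bmp6*, *Bmper* and *Bmpr1a* had none. Genes with more UMIs have narrower intervals, so these counts also follow level. The largest ratio among pairs with more than 3 UMIs in each batch, other than the venous-like *Bmp2* values, was that of *Id2* in macrophage-like cells, at 4.72, followed by 3.34 in monocyte-like cells. *Id3* in alveolar matrix fibroblast-like cells was at 2.17 (1.93 to 2.44) in Batch 1 and 6.03 (5.72 to 6.37) in Batch 2, a ratio of 2.77. *Id2* went the other way in AT2-like cells, 2.13 times higher in Batch 1, and in general capillary-like cells, 1.85 times higher.

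The immediate early genes *Fos*, *Jun*, *Egr1* and *Atf3*, which respond quickly to stress and to tissue dissociation, moved with the batch as well. Their summed level was higher in Batch 2 in 22 of 23 types. It was 18.9 in Batch 1 and 98.2 UMIs per 10000 in Batch 2 in smooth muscle-like cells, 3.24 and 45.5 in alveolar matrix fibroblast-like cells, 29.5 and 53.4 in macrophage-like cells and 1.38 and 21.4 in AT2-like cells. Its part in the batch differences of the *Id* genes was not tested, and mouse, batch and dissociation cannot be told apart here.

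Of 40 other genes of the pathway, listed by role, 17 were high enough to be tested. None of the 6 other ligands passed the filter, while 3 of 8 receptors, 4 of 6 SMADs, 5 of 11 antagonists, 2 of 6 further targets and 3 of 3 E proteins did. In the endothelial class 10 of the 17 were higher and none lower, beside 19.7% and 7.57% of all genes, with a median log2 difference of 2.05 beside 0.03 over all genes. In the mesenchymal class 8 were higher and none lower, beside 18.0% and 11.0% (median 0.71 beside -0.03). In the epithelial class 3 were higher and 3 lower, beside 30.0% and 8.17% (median 0.07 beside 0.15). In the immune class none was higher and 11 were lower, beside 12.4% and 20.1% (median -2.19 beside -0.40). Most of these genes had types at 0 UMIs, so the medians depend on the prior count.

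Among them, *Tcf4*, an E protein bound by ID proteins, held UMIs in every type. It was higher in the endothelial class by 2.44 (SE 0.14, edgeR adjusted p = 7.32e-25) and in the mesenchymal class by 0.64 (SE 0.15), and lower in the epithelial and immune classes, by log2 differences of -1.85 (SE 0.20) and -1.23 (SE 0.22). *Tmem100*, an endothelial target of BMP9 and BMP10, was higher in the endothelial class by 3.58 (SE 0.80, edgeR adjusted p = 2.18e-04). It was also higher in the mesenchymal class, by 0.96 (SE 0.31). In the epithelial class it was lower by a log2 difference of -3.25 (SE 0.47, adjusted p = 1.78e-08), and in the immune class by -1.29 (SE 0.43). *Acvrl1*, the endothelial type I receptor ALK1, and *Hey1*, a Notch and BMP target, were called higher in the endothelial class (adjusted p = 4.22e-20 and 1.86e-14). *Fstl1*, a secreted antagonist, was called higher in the mesenchymal class (adjusted p = 2.13e-29) and in the endothelial class (adjusted p = 4.08e-15) and lower in the immune class (adjusted p = 3.00e-21). *Smad4*, the shared SMAD partner, was called higher in the epithelial class (adjusted p = 7.64e-04), and *Smad7*, an inhibitory SMAD, in the endothelial class (adjusted p = 1.46e-04). *Smad1* was called lower in the immune class (edgeR adjusted p = 0.00283).

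The genes whose levels followed each member most closely over the 16 types were ranked by the lower Pearson correlation of both batches among 6718 genes. For *Bmper* this was *Rbm46* (0.91 in Batch 1 and 0.95 in Batch 2), for *Id3* *Skp1a* (0.91 and 0.95), for *Bmpr1a* *Samd4* (0.90 and 0.89) and for *Bmpr2* *Cyyr1* (0.86 and 0.96). For *Bmp5* it was *Foxf2* (0.84 and 0.96), for *Bmp4* *Plekhh2* (0.84 and 0.86), for *Id1* *Kif26a* (0.84 and 0.87) and for *Bmp2* *Pdzrn4* (0.81 and 0.84). *Id2* had no close match, with *Med1* first at 0.61 and 0.64. With so few types, correlations of this size arise among many genes that share a lineage.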

How the data were processed

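Drop-seq libraries of 2 PND1 mouse lungs (Batch 1 and Batch 2, 1 mouse each) were used. The deposited values are raw UMI counts per gene and cell, which the authors made by aligning reads to mm10 with Bowtie2 2.2.7 (per the labels) and counting exonic UMIs, in cells with at least 500 genes. Whether counting used strand is not given in the sources used here. Cells with over 10% mitochondrial UMIs were left out.

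Cells were clustered (2000 variable genes without BMP genes, 30 principal components, 12 neighbours per batch, leidenalg 0.10.2, resolution 2, then 1.5 within classes). A cluster took the name of the type whose fixed markers scored highest. At least 3 of those markers had to be found in at least 10% of its cells. The top genes of the cluster could not hold more markers of another type than of its own. The 111 cycling cells, 287 cells with markers of more than 1 class and 329 others remained unnamed. Predicted doublets (13 and 118 cells) were kept.

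Counts were summed by type and batch (types of at least 5 cells in both batches) and tested with edgeR 4.0.16 (R 4.3.3, TMM, filterByExpr, quasi-likelihood, type plus batch, 22 residual degrees of freedom, adjusted p under 0.05). Batch entered as the block because sums of a batch come from the same mouse. The median correlation of batch differences between types was 0.13. A class was set against the mean of the other 3 class means, and a type against the mean of the other types of its class. The fit was run on simulated counts with known changes in the endothelial sums only. Those counts held no batch effect and no other differences between types, so the run does not cover these features of the data. Alternatives were DESeq2 1.42.0, no gene filter, no block, a 5% mitochondrial limit, at least 20 cells, class sums, separate clustering, no doublets, other library sizes and each batch alone. Values of a batch alone were differences of log2 CPM, without a test. Leaving out the smallest sums, or the lymphatic-like, monocyte-like and macrophage-like ones, was added after seeing the data. All members are named, and of the pathway list the gene called with the largest difference in each role, with some further called genes. Members, lists and tests were chosen with earlier results of these data known.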

Additional observations from a re-analysis of the deposited data

Results flagged for a closer look

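The 1940 cells of Batch 2 above the mitochondrial limit entered no comparison, and 9 of the 10 genes were detected in them above the limit that a count of 0 allows. The ligands were at 0.225 (*Bmp2*), 0.356 (*Bmp4*) and 0.125 (*Bmp5*) UMIs per 10000, beside 0.222, 0.328 and 0.143 in the Batch 2 cells that were kept. *Bmper* was at 0.151 beside 0.167, *Bmpr1a* at 0.437 beside 0.425 and *Bmpr2* at 0.286 beside 0.323. *Id2* was at 3.01 beside 2.89. *Id1* and *Id3* were lower in the cells above the limit, at 1.40 beside 2.06 and at 3.48 beside 4.72 UMIs per 10000. With mitochondrial and hemoglobin UMIs left out of the totals, *Id1* was at 1.64 beside 2.22 and *Id3* at 4.08 beside 5.09. The cells above the limit were not named by type, so their mix of types was not compared, and with 1 mouse no test was possible. The Batch 2 cells above the limit have no counterpart in Batch 1, where 1 cell was above it.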

How the results depend on the processing

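Of 603 values under alternatives for 51 results, 526 counted as the same, 67 were no longer called, 6 became called and 4 reversed. Among the 526 were 49 values of Batch 1 alone and 51 of Batch 2 alone, which had no p-value and were judged by direction only. A change of direction also counted as the same where neither fit made a call. The reversals were *Bmp5* in the epithelial class, which ran from -0.0825 to 1.00 over the batches taken alone, *Id2* in the immune class, which ran from -0.54 to 1.44 and was -0.16 with separate clustering, and *Bmp2* in AT1/AT2-like cells, at -0.45 with separate clustering. The causes were not tested. Called genes rose to 4611 without a gene filter and to 4630 with class sums in the epithelial class (2600 in the fit used), to 3766 with class sums in the endothelial class (1862), to 3087 with at least 20 cells and 3935 with class sums in the mesenchymal class (1977) and to 4109 with class sums in the immune class (2216). Class sums and no filter tested more genes. Called member and type pairs were 29, and 16 without the replicate block, 16 with at least 20 cells and 17 with separate clustering. The block changed no call of a member in a class. The share of called genes that were higher in the epithelial class was 78.6%, 50.1% with DESeq2, 58.7% with class sums and 90.9% without a filter, and in the endothelial class 72.3%, 60.7%, 55.0% and 84.0%. In the immune class it was 38.2%, and 49.5% with class sums. The thinned share of cells kept the type of highest detection of 6 and a 2 UMI detection limit that of 4 of the 10 members. Of the 30 most alike genes, 7 remained with Spearman correlation. Depth limits *Bmp6* and the types with few cells.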

Other observations

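Cells without a type name held the members as well. In the 111 cycling cells *Id1* was at 1.38 in Batch 1 and 1.62 UMIs per 10000 in Batch 2, *Id3* at 3.30 and 3.03 and *Id2* at 0.53 and 0.64. In the unnamed endothelial clusters, 43 and 81 cells, *Id1* was at 4.55 and 5.17 and *Id3* at 13.2 and 9.38, within the range of the named vascular types. In the unnamed immune clusters, 28 and 177 cells, *Id2* was at 3.13 and 5.88. Ligand transcripts were found in 23.3% and 19.3% of the 116 and 171 cells with markers of more than 1 class. The cycling cells and the cells with markers of more than 1 class entered no test. The unnamed endothelial and immune clusters entered only the fit to UMIs summed by class.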
